A study of Drosophila melanogaster with 4 samples.

Results

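The aminoacyl-tRNA synthetases are the enzymes that join each amino acid to its tRNA, and their RNA was followed here in fly ovaries with and without a germline knockdown of the nucleoporin Nup358. The genes were taken by symbol, as an amino acid code followed by RS for the enzymes of the cytosol or by RS-m for those of the mitochondrion, together with the fused enzyme gene GluProRS. This gave 33 genes, 18 cytosolic and 15 mitochondrial, out of 16356 genes that the RefSeq table named in the deposited counts. The symbols leave out alpha-PheRS and beta-PheRS, the subunits of the cytosolic phenylalanine enzyme, which are described with the partner genes. The compartment follows the gene symbol and was not measured.

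Ovaries of adult Drosophila melanogaster were compared between 2 Control libraries, from the cross labelled mat>Luc, and 2 Nup358GLKD libraries, from ovaries with germline knockdown of Nup358. Each library was poly(A)-selected RNA of 10 to 15 ovary pairs. The sources used here do not give strain, age in days, the knockdown construct or the promoter that drives it. The libraries are numbered as biological repeats without word of separate crosses, so a p-value reflects the spread between these 4 samples, which may be technical. Whole ovaries hold somatic cells that a germline knockdown does not reach, and in such bulk RNA fewer cells of a type cannot be told apart from less RNA per cell.

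As background, a synthetase activates its amino acid with ATP and loads it onto the matching tRNA, and the charged tRNA is then carried to the ribosome by an elongation factor. The enzymes fall into a pair of unrelated structural classes, I and II, whose catalytic domains have different folds. Animal cells keep a separate mitochondrial set, encoded in the nucleus and imported, which serves the ribosomes that make the core subunits of the respiratory chain. Several cytosolic enzymes sit in a multi-synthetase complex held together by the AIMP scaffold proteins. Some genes, such as those of the glycine and lysine enzymes in mammals, supply both compartments. Ovarian germ cells load the egg with mitochondria and with the means of protein synthesis.

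The libraries held 58876800 to 60792292 expected counts, and the lowest count of any synthetase gene in any library was 333. All 33 genes passed the filter on low counts. Values are CPM, counts scaled to a common library size with TMM factors, and a gene was called when edgeR's quasi-likelihood test gave an adjusted p under 0.05 over 10191 features. Nup358 itself had 662.2 and 624.3 CPM in Control against 282.7 and 151.3 CPM in the knockdown libraries, with no overlap, at an edgeR adjusted p of 0.0524 (DESeq2 called it lower). The knockdown libraries resembled each other less than the Control libraries did: the SD of log2 differences between replicates over tested features was 0.668 against 0.193. Among the ovary's own cell types, 9 germline and 12 follicle cell marker genes were all detected. Summed muscle sheath markers (8 genes) lay at 322.6 and 255.7 CPM in Control, and at 1468 and 307.4 CPM in Nup358GLKD replicates 1 and 2.

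In Control ovaries the cytosolic enzymes had more RNA than the mitochondrial ones, with a single exception. Per kilobase of the canonical transcript in the Ensembl annotation, cytosolic genes ranged from 40.8 CPM per kb for ValRS to 154 CPM per kb for AsnRS, with a median of 93.6. The mitochondrial genes other than AspRS-m ranged from 5.72 CPM per kb for GluRS-m to 19.4 CPM per kb for TyrRS-m, so that the cytosolic range and theirs did not meet. AspRS-m, the mitochondrial aspartate enzyme, stood at 46.7 ± 0.568 CPM per kb (SD, n = 2), between MetRS at 41.4 and CysRS at 49.8. Near the top of the order, LysRS at 142.4 ± 4.23 and AlaRS at 138.4 ± 0.588 CPM per kb differed by less than the larger SD. Taken over all synthetase RNA, the mitochondrial genes held 11.1% and 11.6% of the CPM in Control and 8.82% and 11.02% in the knockdown. Without AspRS-m these shares were 7.76% and 8.12% in Control and 5.28% and 6.38% in the knockdown.

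**Figure D1:**
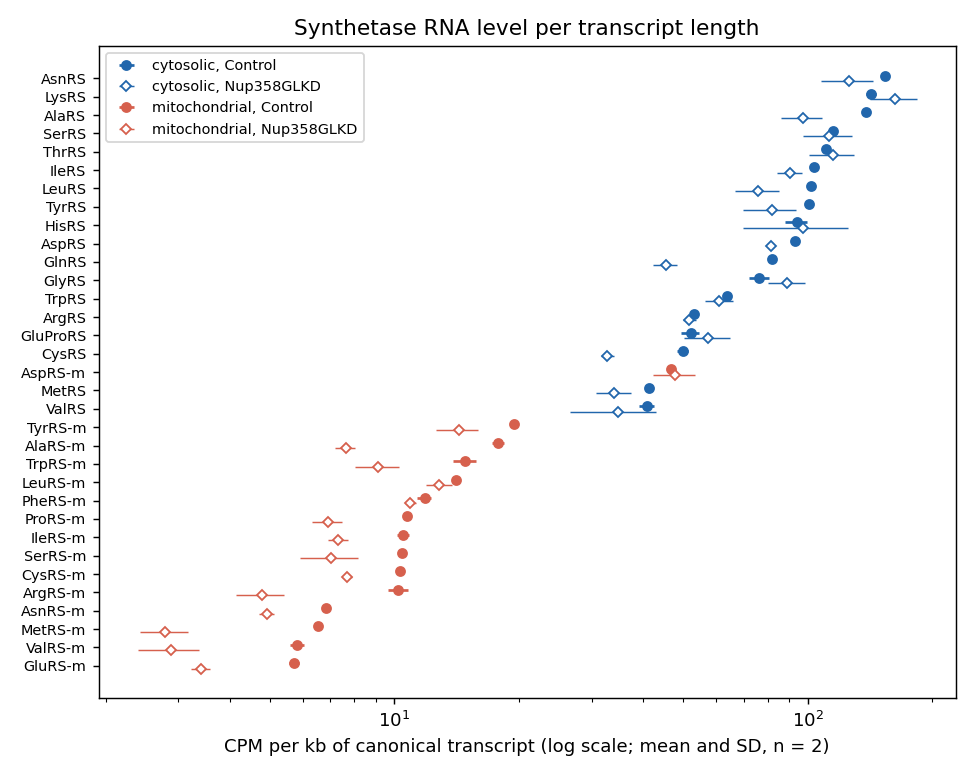
Level of each synthetase gene in CPM per kilobase of canonical transcript, on a log axis, with filled circles for Control and open diamonds for Nup358GLKD (mean and SD, n = 2 each). AspRS-m, at 46.7 in Control, lies among the cytosolic genes, and the other 14 mitochondrial genes lie at or under 19.4.

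A minority of the mitochondrial enzyme genes fell in the knockdown. Of 15 genes 0 rose, 4 fell and 11 did not pass, beside 9.59% of all tested features that rose and 9.03% that fell. In 14 of the 15, both knockdown libraries lay below both Control libraries, as did 39.8% of tested features. Their median log2 change was −0.57, beside 0.01 over all features. Other features at these levels were also lower more often than higher. Among the 2546 features whose mean CPM lay in the range of these 14 genes (7.75 to 41.1 CPM), a range chosen after seeing the data, 16.4% fell, 60.7% had both knockdown libraries below both Control libraries, and the median was −0.37. The 14 genes without AspRS-m had a median of −0.60. Which libraries entered decided these counts. Without Control replicate 1 edgeR called 0 of all features, and without Control replicate 2 also 0 (902 and 827 higher, 815 and 723 lower at an unadjusted p under 0.05, among them 3 lower mitochondrial genes each time), so that every edgeR call named here was lost. Without Nup358GLKD replicate 1 it called 12 mitochondrial genes as lower and 1 as higher, beside 33% and 29.3% of features, and without replicate 2 it called 13 and 0, beside 39.7% and 35.7%. DESeq2 with all libraries called 9 as lower, beside 20.5% of features.

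The alanine enzyme gene AlaRS-m had 56.1 and 58.8 CPM in Control and 25.6 and 23.7 CPM in the knockdown. Both knockdown libraries were below the lower Control value by more than the distance between replicates. It fell 2.33-fold between means of 57.5 ± 1.92 and 24.6 ± 1.35 CPM (n = 2 libraries each, ± SD; log2 change −1.22, SE 0.12, edgeR adjusted p = 0.0279). MetRS-m, which charges the methionine tRNA whose product also starts mitochondrial translation, had 27.7 and 28.7 CPM in Control and 10.9 and 13.2 CPM in the knockdown. It fell 2.34-fold (log2 change −1.23, SE 0.16, edgeR adjusted p = 0.031), with no overlap between the groups. ArgRS-m, the arginine enzyme gene, had 27.0 and 29.2 CPM in Control and 11.9 and 14.4 CPM in the knockdown, and fell 2.14-fold (log2 change −1.10, SE 0.17, edgeR adjusted p = 0.0343). ValRS-m, for valine, went from 18.4 and 19.4 CPM to 8.25 and 10.5 CPM, a fall of 2.02-fold (log2 change −1.01, SE 0.19, edgeR adjusted p = 0.0425). For each of these 4 genes Nup358GLKD libraries kept 38.7% to 55.4% of the Control mean.

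A further 8 mitochondrial genes lay lower in both knockdown libraries at an unadjusted p under 0.05 but did not pass after adjustment. Together with the 4 that fell, 12 of 15 were lower at that edgeR threshold, beside 2243 of all 10191 tested features. TrpRS-m, for tryptophan, came nearest, with 35.0 and 38.4 CPM in Control and 20.7 and 24.6 CPM in the knockdown (log2 change −0.70, SE 0.15, edgeR adjusted p = 0.0531). GluRS-m, the glutamate enzyme that in mitochondria also loads the glutamine tRNA before amidation, had 9.93 and 9.53 CPM in Control and 5.99 and 5.57 CPM in the knockdown (log2 change −0.75, edgeR adjusted p = 0.0578). The log2 changes of IleRS-m, ProRS-m and SerRS-m were −0.52, −0.63 and −0.57, with edgeR adjusted p-values of 0.0605, 0.0611 and 0.0825. Those of CysRS-m, TyrRS-m and AsnRS-m were −0.42, −0.44 and −0.47 (0.087, 0.0955 and 0.11). DESeq2 called TrpRS-m, GluRS-m, ProRS-m, SerRS-m and IleRS-m as lower too.

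The remaining 3 mitochondrial genes moved little. LeuRS-m, for leucine, had 42.4 and 42.8 CPM in Control and 36.8 and 40.8 CPM in the knockdown (log2 change −0.13, SE 0.12), and PheRS-m, for phenylalanine, had 17.5 and 18.6 CPM against 16.3 and 17.1 CPM (−0.11, SE 0.14). Both turned slightly positive, at 0.011 and 0.033, when only features of at least 5 CPM were kept. AspRS-m had 178.8 and 181.9 CPM in Control and 169.9 and 200.1 CPM in the knockdown, so that the groups overlapped (log2 change 0.04, SE 0.13, edgeR adjusted p = 0.833). Its sign depended on the setting, from −0.054 with total counts and −0.016 without a filter to −0.11 without Nup358GLKD replicate 2. Without Nup358GLKD replicate 1 it passed as higher.

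**Figure D2:**
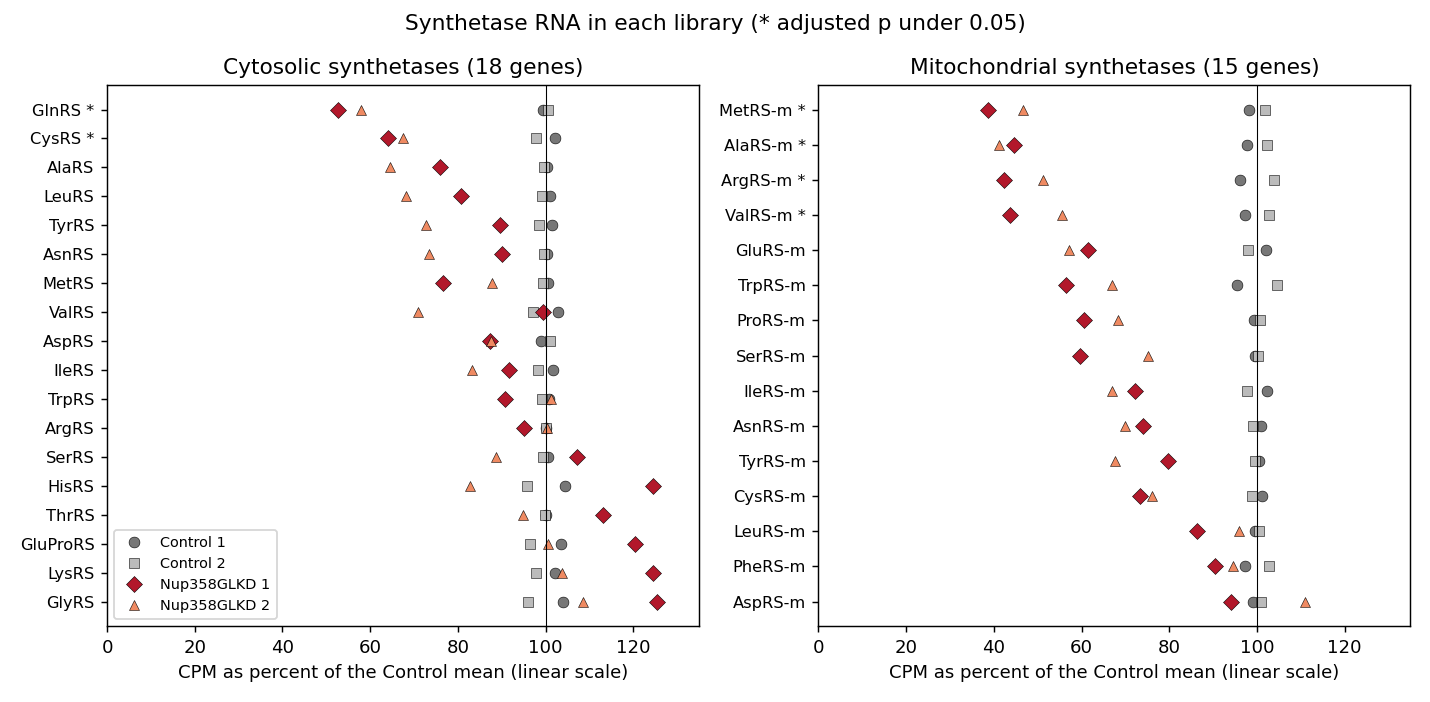
CPM of each synthetase gene in each library as a percent of the gene's Control mean (linear axis), cytosolic genes on the left and mitochondrial genes on the right, sorted by log2 change, with asterisks for adjusted p under 0.05. For 14 of 15 mitochondrial genes both knockdown points lie left of both Control points, and 9 of 18 cytosolic genes show this.

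Few cytosolic synthetase genes passed the test. Of 18 genes 0 rose, 2 fell and 16 did not pass, which is 11.1% that fell beside 9.03% of all tested features. Both knockdown libraries lay below both Control libraries for 9 genes (50% beside 39.8% of features) and above them for 2 (11.1% beside 37.9%), and the groups overlapped for 7. The median log2 change was −0.19, and the 1864 features in the range of their mean CPM (101.3 to 378.5 CPM) had a median of −0.02, with 38.9% below and 7.4% that fell. The share of cytosolic genes that fell was near that of all features. DESeq2 called 3 as lower, beside 20.5% of features. Without Nup358GLKD replicate 1 edgeR called 12 as lower and 0 as higher, beside 33% and 29.3% of features. Without replicate 2 it called 10 and 5, beside 39.7% and 35.7%.

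GlnRS, the glutamine enzyme, had 200.6 and 202.9 CPM in Control and 106.1 and 116.7 CPM in the knockdown. It fell 1.81-fold between means of 201.7 ± 1.61 and 111.4 ± 7.44 CPM (± SD over 2 libraries; log2 change −0.86, SE 0.11, edgeR adjusted p = 0.0298), with the knockdown libraries at 52.6% and 57.8% of the Control mean. CysRS, the cysteine enzyme, had 124.9 and 119.4 CPM in Control and 78.3 and 82.5 CPM in the knockdown, and fell 1.52-fold (log2 change −0.60, SE 0.10, edgeR adjusted p = 0.0386). AlaRS, for alanine, did not pass, with 444.8 and 442.1 CPM in Control and 336.5 and 286.2 CPM in the knockdown (log2 change −0.51, SE 0.13, adjusted p = 0.0636, but 0.0283 in DESeq2). LeuRS, for leucine, had 405 and 397.4 CPM against 324.1 and 273.6 CPM (−0.43, SE 0.13, adjusted p = 0.086). Both lay lower in Nup358GLKD replicate 2 than in replicate 1.

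At the other end of the order lay GlyRS and LysRS, the glycine and lysine enzymes. They are among 5 cytosolic genes without a mitochondrial symbol for the same amino acid (Gln, Gly, His, Lys and Thr). Of these 5, 4 had a positive log2 change and GlnRS a negative one, with a median of 0.06. Whether these genes also supply the mitochondrion was not tested. GlyRS had 201.8 and 186.6 CPM in Control and 243.4 and 210.5 CPM in the knockdown (log2 change 0.23, SE 0.13, edgeR adjusted p = 0.229), and LysRS had 323.1 and 309.8 CPM against 394.2 and 328.6 CPM (0.19, SE 0.14, adjusted p = 0.32). Neither passed, although both knockdown libraries of each were above both Control libraries. GluProRS, which carries the glutamate and proline activities in 1 protein, had 291.4 and 271.5 CPM in Control and 338.9 and 283.1 CPM in the knockdown (0.14, SE 0.14). ThrRS, HisRS and SerRS, for threonine, histidine and serine, had log2 changes of 0.06, 0.05 and −0.03. In each of them replicate 1 was above both Control libraries and replicate 2 below both, and in GluProRS, GlyRS and LysRS replicate 1 was likewise the higher. In HisRS the knockdown SD was 58.2 CPM, with 206.3 and 189.3 CPM in Control and 246.2 and 163.9 CPM in the knockdown. ThrRS and HisRS turned negative with total counts, at −0.040 and −0.048. The muscle sheath markers were also higher in replicate 1, and their part in this difference between replicates was not tested.

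By structural class, all 9 cytosolic class I genes (for Arg, Cys, Gln, Ile, Leu, Met, Trp, Tyr and Val) had a negative log2 change, from −0.86 to −0.03 with a median of −0.28, and both that fell were among them. Of the 8 class II genes (for Ala, Asn, Asp, Gly, His, Lys, Ser and Thr) 4 were negative and 4 positive, with a median of 0.01. GluProRS, which joins a class I and a class II enzyme, was counted in neither class and had a log2 change of 0.14. The subunit genes alpha-PheRS and beta-PheRS are also outside these counts. Of all features in the cytosolic range of levels 51.2% were negative and 7.4% fell. ArgRS and TrpRS, the class I genes nearest to 0 at −0.03 and −0.06, turned positive at 0.11 and 0.086 when only features of at least 5 CPM were kept. Among mitochondrial genes the class medians were −0.70 over 9 class I genes and −0.52 over 6 class II genes. The difference between classes was not tested. By complex membership the cytosolic genes gave like values: the 8 enzymes of the multi-synthetase complex had a median of −0.19 with 1 that fell, and the 10 others −0.15 with 1 that fell. Besides GlnRS, the complex enzymes ranged from LeuRS at −0.43 to LysRS at 0.19, and MetRS, IleRS and AspRS lay at −0.28, −0.19 and −0.19.

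**Figure D3:**
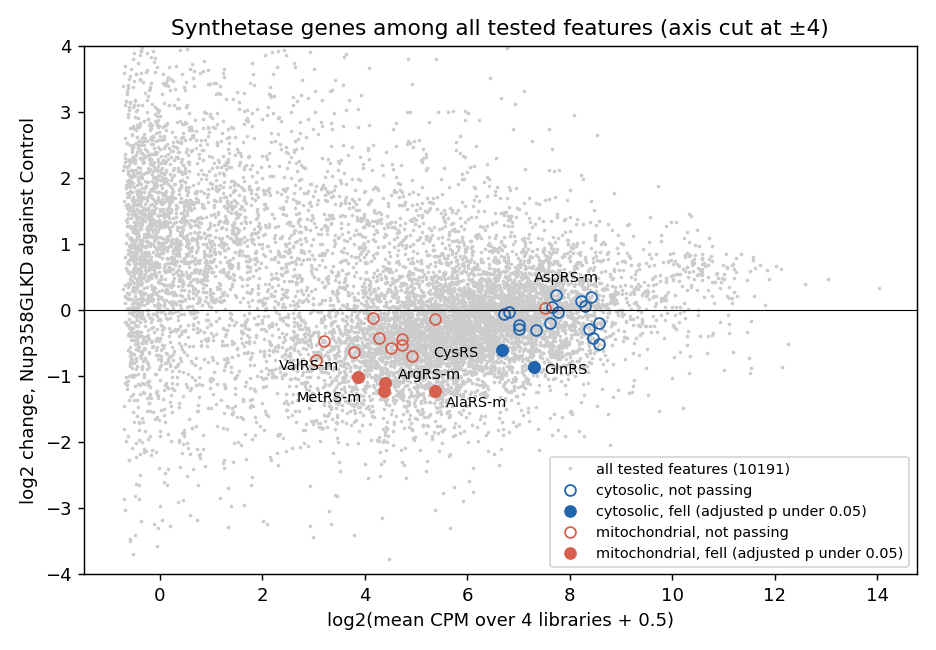
Log2 change in Nup358GLKD against Control over log2(mean CPM + 0.5) for all 10191 tested features in grey, with 154 of them outside the vertical axis, and the synthetase genes as circles, filled where adjusted p was under 0.05. The mitochondrial circles other than AspRS-m lie at low to middle levels, where the grey cloud is itself centred below 0.

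For 12 amino acids the cytosolic and the mitochondrial enzyme each have a gene of their own, which allows a ratio within each library that no scaling factor touches. The mitochondrial CPM as a percent of the cytosolic CPM fell below the Control range in each knockdown library for 9 amino acids and lay above it in each for 3. Separate groups were common: of all tested features, by CPM, 39.8% had both knockdown libraries below both Control libraries and 37.9% above. Such shares were not computed for ratios of other gene pairs. With 2 libraries a group, an exact permutation test of 1 ratio cannot give a p below 0.333. On the log2 scale the difference was widest for arginine (−1.06), where ArgRS-m stood at 23.9% and 25.8% of ArgRS in Control and at 11.05% and 12.7% in the knockdown. For methionine the ratio was 19.5% and 20.5% in Control and 10.1% and 10.6% in the knockdown, and for valine 12.9% and 14.4% against 5.999% and 10.7%. For alanine, where AlaRS itself lay lower, the ratio still went from 12.6% and 13.3% to 7.60% and 8.27%. The 3 amino acids with the opposite order were cysteine (17.6% and 18.0% against 20.3% and 20.04%), aspartate (86.5% and 86.1% against 93.0% and 109%) and leucine (10.5% and 10.8% against 11.3% and 14.9%). The median over the 12 pairs of the difference between mitochondrial and cytosolic log2 change was −0.43. The levels of the paired genes differ, and all features at the mitochondrial and at the cytosolic levels had medians of −0.37 and −0.02. The mitochondrial range of levels was set without AspRS-m, whose pair is among the 12, so these medians are not matched to the pairs. The part of level in the gap was not tested.

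**Figure D4:**
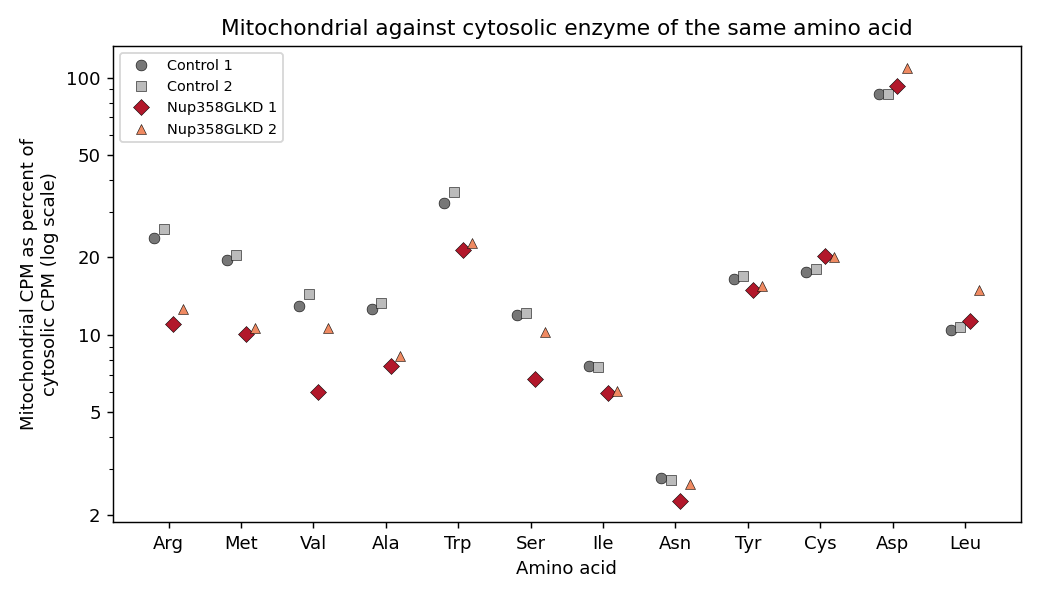
CPM of the mitochondrial enzyme gene as a percent of the CPM of the cytosolic one (log axis) for the 12 amino acids with a gene for each, per library, not scaled for transcript length. From Arg to Tyr both knockdown points lie below both Control points, and for Cys, Asp and Leu they lie above.

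Deposited rows are RefSeq transcripts, and 20 of the 33 genes had more than 1 row (50 rows in all). A row's share of its gene's counts moved by over 10 percentage points, with no overlap between groups, in 5 rows of 2 genes, IleRS and ArgRS-m, which were picked after their values were seen. How often rows of other genes moved in this way was not computed, so the count has no background share beside it. IleRS, the isoleucine enzyme, changed little in total, with 410.5 and 397.2 CPM in Control and 370.2 and 336.1 CPM in the knockdown (log2 change −0.19, SE 0.11, edgeR adjusted p = 0.238). Its transcript NM_176387 held 73.5% and 79.1% of the gene's counts in Control and 47.9% and 44.4% in the knockdown. The transcript NM_168952 held 23.9% and 20.9% in Control and 38.3% and 39.8% in the knockdown, and NM_080101 held 2.66% and 0.0157% against 13.8% and 15.8%. In the Ensembl annotation the 3 IleRS transcripts have 1 and the same coding sequence. They differ over 79 of 3899 bases, so the division rests on reads over those bases. Tested as rows, NM_176387 had a log2 change of −0.98 (SE 0.14), which did not pass in edgeR (adjusted p = 0.0579) and passed in DESeq2 (adjusted p = 1.26e-07). NM_168952 had a log2 change of 0.55 (adjusted p = 0.0944 in edgeR and 0.0122 in DESeq2). Within Control NM_080101 itself lay far apart, at 10.9 and 0.065 CPM. For ArgRS-m the transcript NM_141488 held 25.7% and 10.5% in Control, far apart within the group, and 0% and 8.35% in the knockdown. Of 58 synthetase rows tested, 0 passed in edgeR (16 at an unadjusted p under 0.05, and 0.0049% of all rows called lower), and in DESeq2 12 passed as lower and 3 as higher, beside 13.9% of rows in each direction.

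**Figure D5:**
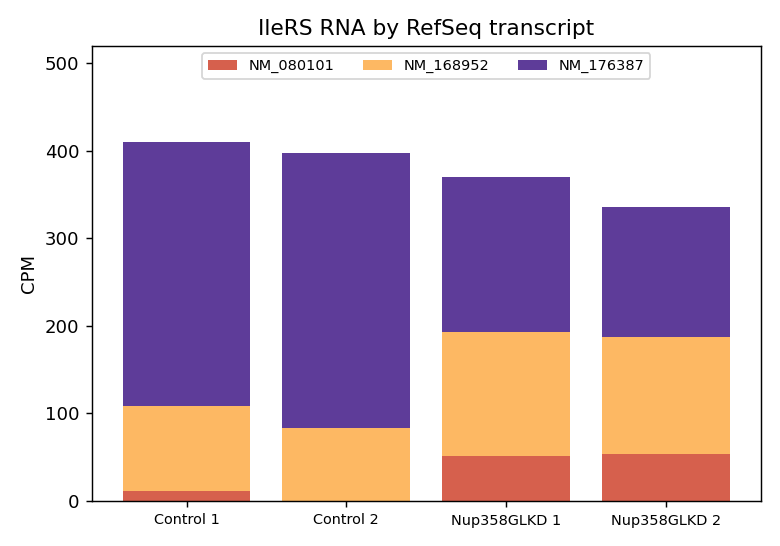
CPM of the 3 RefSeq transcripts of IleRS, stacked, in each library. The gene total lies between 336.1 and 410.5 CPM, and NM_176387 shrinks from over 300 CPM in each Control library to 177.3 and 149.1 CPM in the knockdown libraries.

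Among 17 synthetase genes whose exons share no base with another annotated gene, 2 fell (11.8%, beside 9.03% of all features) and the median was −0.23. The 5 mitochondrial ones among the 17 had a median of −0.70. The strand setting of the counting is not given, so reads over shared bases cannot be assigned by strand. AspRS shares 73.5% of its exon bases with Nmda1 and 2 antisense RNAs. For ArgRS-m, CysRS-m, SerRS-m and GluProRS the share was 11.8% to 16.6%. Of their neighbours, mRpS9 (beside ArgRS-m) had a log2 change of −0.43, CG13016 (beside CysRS-m) of −0.95 and Nagk (beside SerRS-m) of 1.14. None of them passed in edgeR, and DESeq2 called CG13016 as lower and Nagk as higher.

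Partner genes were mixed. The subunits of the cytosolic phenylalanine enzyme parted: alpha-PheRS fell 1.67-fold, from 149.4 and 151.8 CPM to 96.8 and 83.0 CPM (log2 change −0.74, SE 0.12, edgeR adjusted p = 0.0381). Its partner beta-PheRS had 144.3 and 141.9 CPM in Control and 151.3 and 143.9 CPM in the knockdown (0.04, SE 0.10). The groups were separate for alpha-PheRS and for beta-PheRS overlapped. Of 3 scaffold genes of the multi-synthetase complex, AIMP1 fell 1.43-fold from 73.8 to 51.5 CPM (log2 change −0.52, edgeR adjusted p = 0.0488), while AIMP2 had −0.04 and AIMP3 −0.40 and did not pass. Slimp, an insect paralog of the mitochondrial serine enzyme, had a log2 change of −0.24 and did not pass.

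The mitochondrial amidotransferase converts glutamate to glutamine on the tRNA that GluRS-m has loaded, and no mitochondrial glutamine enzyme is among the 33 genes. Of its 3 subunit genes, GatB fell 1.92-fold, from 25.9 and 28.2 CPM to 13.2 and 15.0 CPM (log2 change −0.94, SE 0.15, edgeR adjusted p = 0.0356). GatA and GatC had −0.26 and −0.35 and did not pass. Among 8 mitochondrial translation factor genes the median was −0.59, with 1 that fell (12.5%), 0 that rose and 7 not passing, beside 9.03% of all features and 16.4% of those at mitochondrial synthetase levels that fell. The one that fell was the ribosome recycling factor gene mRRF1, 2.03-fold lower, from 13.2 and 13.97 CPM to 6.36 and 7.01 CPM (log2 change −1.02, SE 0.17, edgeR adjusted p = 0.0377). The elongation factor genes mEFTu1 and mEFG1 had log2 changes of −0.06 and 0.04, and the initiation factor genes mIF2 and mIF3 of −0.64 and −0.96. None of them passed in edgeR. DESeq2 called 4 of the 8 factor genes as lower, mIF2 and mIF3 among them, beside 20.5% of features.

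The 8 cytosolic elongation factor genes had a median log2 change of 0.45. Of them 1 rose (12.5%, beside 9.59% of all features), 0 fell and 7 did not pass. The gene that rose, eEF1alpha2, was at 1.20 and 1.33 CPM in Control and 3.94 and 3.37 CPM in the knockdown. The abundant eEF1alpha1, which carries charged tRNA to the ribosome, had 15067 and 14497 CPM in Control and 21365 and 15832 CPM in the knockdown (log2 change 0.33, edgeR adjusted p = 0.306). DESeq2 called 4 of the 8 elongation factor genes as higher, eEF1alpha2 among them, and 1 as lower, beside 20% and 20.5% of features. Of 12 tRNA processing and modification genes 0 rose, 1 fell (8.33%, beside 9.03% of all features) and 11 did not pass (median −0.05). The one that fell, mldr, a subunit of the mitochondrial RNase P, went from 18.3 to 11.2 CPM (log2 change −0.71, edgeR adjusted p = 0.0488).

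Uncharged tRNA activates the kinase Gcn2, and the response runs through the transcription factor ATF4, encoded by crc in flies. Of 8 genes listed with this response, which include a further kinase gene, PEK, 2 rose, 2 fell and 4 did not pass (median 0.02). That is 25% each way, beside 9.59% of all features that rose and 9.03% that fell. The genes that rose were crc (357.3 to 524.3 CPM, log2 change 0.55, edgeR adjusted p = 0.0414) and Xrp1 (75.1 to 207.4 CPM, 1.46, adjusted p = 0.0279). The kinase genes Gcn2 (106.7 to 71.9 CPM, −0.57, edgeR adjusted p = 0.0407) and PEK (162.2 to 99.7 CPM, −0.70, adjusted p = 0.033) fell. AsnS, the asparagine synthetase gene that ATF4 induces in mammals, had 139.8 and 106.7 CPM (−0.39, edgeR adjusted p = 0.0655). Thor went the other way, from 55.2 to 89.1 CPM (0.69, edgeR adjusted p = 0.0598), and DESeq2 called it higher. PPP1R15 and Sesn had log2 changes of 0.09 and −0.05.

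Marker genes of the cell types were mixed, and most did not pass in edgeR, where 9.59% of all features rose and 9.03% fell. Summed over 9 germline markers the level was 4434 to 4448 CPM in Control and 5771 to 5832 CPM in the knockdown, with 1 that rose (orb, 709.2 to 1908 CPM, which makes up most of the difference), 0 that fell and 8 that did not pass. Of the 9, 4 had a negative log2 change (bam, bcd, exu and stau) and the median was 0.11. Over 12 follicle cell markers it was 13516 to 13957 CPM and 14917 to 14994 CPM, with a median log2 change of 0.65. Of the 12, 1 rose (Fas3, 46.6 to 151.6 CPM), 1 fell (Yp3, 1271 to 439.9 CPM) and 10 did not pass. Of 8 muscle sheath markers 0 passed in edgeR (0 at an unadjusted p under 0.05, and 5 higher in DESeq2, beside 20% of features). Over 6 fat body markers the sum was 11.1 to 15.7 CPM and 39.5 to 58.0 CPM, with 2 that rose and Fst at 0 in all libraries. Over 5 hemocyte markers it was 76.9 to 86.6 CPM and 115.05 to 115.58 CPM, almost all of it srp. DESeq2 called 3 germline, 7 follicle cell, 4 fat body and 2 hemocyte markers as higher, beside 20% of features. It called 1 follicle cell marker as lower, beside 20.5%. The part of these marker levels in the synthetase values was not tested.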

How the data were processed

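The deposited table holds expected counts per RefSeq transcript, transposon family and piRNA cluster, 1 column per library, per its file header. Bowtie2, RSEM and build dm3 were used, per the submitters' processing notes. Versions, strand setting and annotation are not stated in these sources. RSEM divides reads among similar transcripts, so row values depend on that division.

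RefSeq rows (34035 of 34437 matched) were summed per gene with a RefSeq gene table of Release 6 and rounded. Testing used edgeR 4.0.16 in R 4.3.3 (TMM, filterByExpr with minimum count 10 and total 15, glmQLFit, robust and not legacy, then glmQLFTest) over 10191 features, with Benjamini-Hochberg adjustment. Each SE is the log2 change over the root of F, and folds are ratios of mean CPM. Alternatives used DESeq2 1.42.0, limma-voom 3.58.1, other scalings, filters and left-out libraries. Ensembl gave transcript lengths and exon overlaps only. Its assembly differs from dm3, so no coordinates are given. Neither pair of replicates was 1 library deposited again (chi-square over degrees of freedom 17.0 in Control). The genes and lists were chosen with earlier results of these data known. Counts were simulated for this comparison over 10191 features, with 50 changed at each size and 1 common dispersion for all features in both groups. On these counts the test found 16% of 2-fold and 96% of 8-fold changes. In the real libraries the knockdown replicates differed more than the Control ones, so these shares describe the simulated counts only. The text names synthetases, genes of the partner and marker lists, and neighbours sharing over 10% of a synthetase's exon bases. Listed genes without a row by symbol were not used here.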

Additional observations from a re-analysis of the deposited data

How the results depend on the processing

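Calls rest on which libraries enter. Leaving out each library in turn gave 0 to 3789 features that rose and 0 to 4218 that fell, 0 to 12 cytosolic genes that fell, 0 to 5 that rose, 0 to 13 mitochondrial genes that fell and 0 to 1 that rose, and mitochondrial medians of −0.73 to −0.57. All zeros for genes that fell came without a Control library. DESeq2 gave 1916 features that rose, 1964 that fell and 9 mitochondrial genes that fell. At a mean of at least 5 CPM 607 features fell, and the medians were −0.046 (cytosolic) and −0.43 (mitochondrial). With total counts the medians were −0.29 and −0.66. Without a filter the median of all features was 0.17. On unsummed rows edgeR gave 0 features that rose, 1 that fell, and 0 cytosolic and 0 mitochondrial genes that fell; DESeq2 there, chosen after seeing the data, gave 2777 and 2784 features, 5 cytosolic genes that fell, 3 that rose and 7 mitochondrial genes that fell. Unsummed rows give no single log2 change per gene.

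Replicate numbers are shared between groups, but the labels do not say that they mark a common batch. Within-group deviations of same-numbered libraries correlated at 0.231 across features. With a replicate block 1 cytosolic gene fell, since CysRS was then at an adjusted p of 0.05004, and the 4 mitochondrial calls were kept.

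Signs changed only for genes that did not pass with all libraries. At a mean of at least 5 CPM ArgRS was at 0.11, TrpRS at 0.086, SerRS at 0.12, LeuRS-m at 0.011 and PheRS-m at 0.033. With total counts AspRS-m was at −0.054, HisRS at −0.048 and ThrRS at −0.040, and without a filter AspRS-m was at −0.016 and HisRS at −0.0045. Leaving out each library in turn gave ranges across 0 for ArgRS (−0.10 to 0.0033), AspRS-m (−0.11 to 0.15), HisRS (−0.27 to 0.29), SerRS (−0.18 to 0.072), ThrRS (−0.077 to 0.15) and TrpRS (−0.17 to 0.016). The cause was not tested. Of the 6 synthetase genes that fell, all 6 were kept in each of RLE factors, total counts, DESeq2, limma-voom, legacy dispersion, no filter and the 5 CPM minimum.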
